A study of Mus musculus with 6 samples.

Results

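Cells make the amino acid serine from a glycolytic intermediate, and then break serine down to supply one-carbon units carried on folate. The 8 enzymes described here are Phgdh, Psat1 and Psph, which build serine, Shmt1 and Shmt2, which split it, and Mthfd1, Mthfd2 and Mthfd1l, which process the folate-bound carbon. They were found by their gene symbols in the platform annotation. Of the 8 genes, 7 had a named probe, and these 7 genes had 8 probes of the 25697 on the array, where 16593 genes were named. Mthfd1l was not analysed here. After dim probes were left out, 6 of the 8 genes and 7 of the 8 probes were tested, of 8253 genes and 11942 probes in all. Psph was above background on no array and was not tested.

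The arrays measured messenger RNA of pre-selected double-positive (DP) thymocytes, which carry both CD4 and CD8, from AND.Rag1-/-H-2d mice. The AND T cell receptor binds the class II molecule I-Ek when this holds MCC, a peptide of moth cytochrome c. Plate-bound I-Ek Ig dimers, loaded with MCC, gp250 or Hb, stimulated the cells over 7 h. The labels describe MCC as the source of negative selection signals, gp250 as that of positive ones and Hb as non-selecting, and each ligand had 2 arrays. All 3 groups share the AND receptor, the Rag1 deletion and the H-2d background, so the cells had no receptor of their own rearrangement, and the ligand came from a plate and not from thymic stroma. Whether both arrays of a ligand came from separate mice or cultures is not stated in the labels, so the spread behind the p-values is that between 2 samples and may be technical.

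Phgdh oxidises 3-phosphoglycerate, a glycolytic intermediate, Psat1 moves an amino group onto the product from glutamate, and Psph removes the phosphate to give serine. The hydroxymethyltransferases Shmt1, in the cytosol, and Shmt2, in mitochondria, turn serine into glycine and pass a carbon to tetrahydrofolate. In mitochondria Mthfd2 and Mthfd1l oxidise that carbon and release formate, and in the cytosol Mthfd1 attaches formate to folate again, from where it enters purines, thymidylate and methionine. In mature T cells this route is known to be raised after activation.

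Deposited signals averaged 582 and 613 on the MCC arrays, against 445 to 488 on the gp250 and Hb arrays. Between 10519 and 11603 probes of an array were above background. Replicate arrays of a ligand correlated with r = 0.994 over the tested probes. Precision is limited by the number of arrays. The labelled cell type was checked against 12 DP thymocyte markers, of which 10 had a named probe and 9 were tested. Cd4, the class II coreceptor, read 874 and 866 in deposited intensity with Hb, 734 and 794 with gp250, and 15.7 and 27.8, not above background, with MCC. For CD8, the Cd8a probe was above background on no array and was not tested. The brighter Cd8b1 probe read 9328 and 10275 with MCC and 41036 to 47008 on the other arrays. Of the 9 tested markers, 6 were lower and 1, Cd3g, was higher with MCC than with Hb at an adjusted p under 0.05 in limma, where 28.8% of all tested genes were lower and 26.2% higher. The Rag1 probe was among the 6, and it was above background on all arrays of these cells labelled Rag1-/-. It read 745 and 822 in deposited intensity with MCC and 7638 to 9152 on the other arrays. Where the probe lies relative to the deleted part is not known here, so its signal does not check the genotype. The part of the marker differences in the results below was not tested.

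MCC was first set against Hb, the non-selecting ligand, to see how the enzymes respond to negative selection signals. Phgdh, Psat1, Shmt2, Mthfd1 and Mthfd2 were above background with every ligand, and all 5 were higher with MCC by limma at an adjusted p under 0.05, each by a fitted change of at least 2-fold. The sixth, Shmt1, was also called higher, but it was tested only because it was above background on both MCC arrays. Among all 8253 tested genes, each taken by its brightest probe, 26.2% passed this test as higher, and 8.65% passed as higher with a fitted change of at least 2-fold. Among the 7910 genes above background on at least 2 of the 4 gp250 and Hb arrays, a limit added after the values were seen, these shares were 24.6% and 7.17%. The enzymes had been chosen with earlier results of these data known, so the shares are no independent test of the set. The median log2 change of the 5 enzymes was 2.44, with a range of 1.18 to 2.86, and the median over all tested genes was -0.04. In bulk RNA, fewer cells of a type and less RNA per cell cannot be told apart.

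The first enzymes of the route are the serine builders. Phgdh, which commits 3-phosphoglycerate to serine, had deposited intensities of 960 and 893 on the MCC arrays, 228 and 286 on the gp250 arrays, and 358 and 296 on the Hb arrays. Both MCC arrays lay above all 4 others. Phgdh rose 2.27-fold with MCC over Hb (1.18 ± 0.11 on the log2 scale, SE from limma with 2 arrays for each ligand, 95% interval 0.91 to 1.46, limma adjusted p = 0.000267). It was the smallest rise of the 5 enzymes measured with both ligands.

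Psat1, the aminotransferase that follows Phgdh, had intensities of 3575 and 3338 with MCC, 395 and 458 with gp250, and 537 and 475 with Hb. The MCC arrays stood far above the rest. The rise with MCC over Hb was 5.43-fold (log2 2.44 ± 0.09, 95% interval 2.22 to 2.66, limma adjusted p = 6.65e-06). The intervals of Phgdh and Psat1 do not overlap, although their difference was not tested.

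The probe for Psph, the phosphatase that releases serine, read -23.4 and -15.5 with MCC, -14.2 and -9.94 with gp250, and -17.0 and -12.9 with Hb. Values below 0 arise because a background had been subtracted before deposit. The detection p-value of this probe was 0.706 or more on every array, so no change of the last step of serine synthesis could be measured.

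Shmt1, the cytosolic hydroxymethyltransferase, read 191 and 205 with MCC. It read 28.4 and 2.14 with gp250 and 0.0668 and 6.76 with Hb, and none of these 4 values was above background. Shmt1 was therefore detected on the MCC arrays and on no other. Each array without detection was taken at the larger of 2 values, the probe's signal or the dimmest signal detected on that array. On this basis Shmt1 was at least 3.63-fold higher with MCC than with Hb and at least 3.83-fold higher than with gp250 (limma adjusted p = 0.000118 and 0.000195). The test of Shmt1 rests on both MCC arrays: without either of them the probe was above background on 1 array and was not tested.

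Shmt2, the mitochondrial counterpart, had 2 probes. The brighter one read 678 and 620 with MCC, 72.1 and 68.8 with gp250, and 96.7 and 66.2 with Hb. All 6 values were above background, the MCC arrays stood apart, and the gp250 arrays lay within the range of the Hb arrays. Its rise over Hb was 5.82-fold (log2 2.54 ± 0.16, 95% interval 2.16 to 2.92, limma adjusted p = 4.09e-05). The dimmer probe read 250.2 and 250.3 with MCC, 22.3 and 22.1 with gp250, and 24.9 and 45.5 with Hb, and of the last 4 values only the 45.5 was above background. It changed in the same direction, 4.39-fold over Hb (log2 2.14 ± 0.17, limma adjusted p = 0.000115) and at least 4.72-fold over gp250.

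Mthfd1, the cytosolic enzyme that carries 3 activities of the folate cycle in 1 protein, read 681 and 627 with MCC, 49.7 and 51.4 with gp250, and 55.9 and 68.3 with Hb. Both MCC arrays lay above all others. Mthfd1 rose 7.26-fold over Hb (log2 2.86 ± 0.11, 95% interval 2.58 to 3.14, limma adjusted p = 7.71e-06). This was the largest rise among the 5 enzymes measured with both ligands, and Shmt1, with only a bound, has no place in that order. Without background correction the fitted log2 value of Shmt1, 3.31, was above that of Mthfd1.

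Mthfd2, the mitochondrial dehydrogenase and cyclohydrolase, read 350 and 338 with MCC, 84.4 and 76.4 with gp250, and 81.7 and 102 with Hb. The MCC arrays were above all others, and the gp250 and Hb arrays overlapped. Its rise was 2.88-fold (log2 1.52 ± 0.14, 95% interval 1.19 to 1.86, limma adjusted p = 0.000199).

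**Figure D1:**
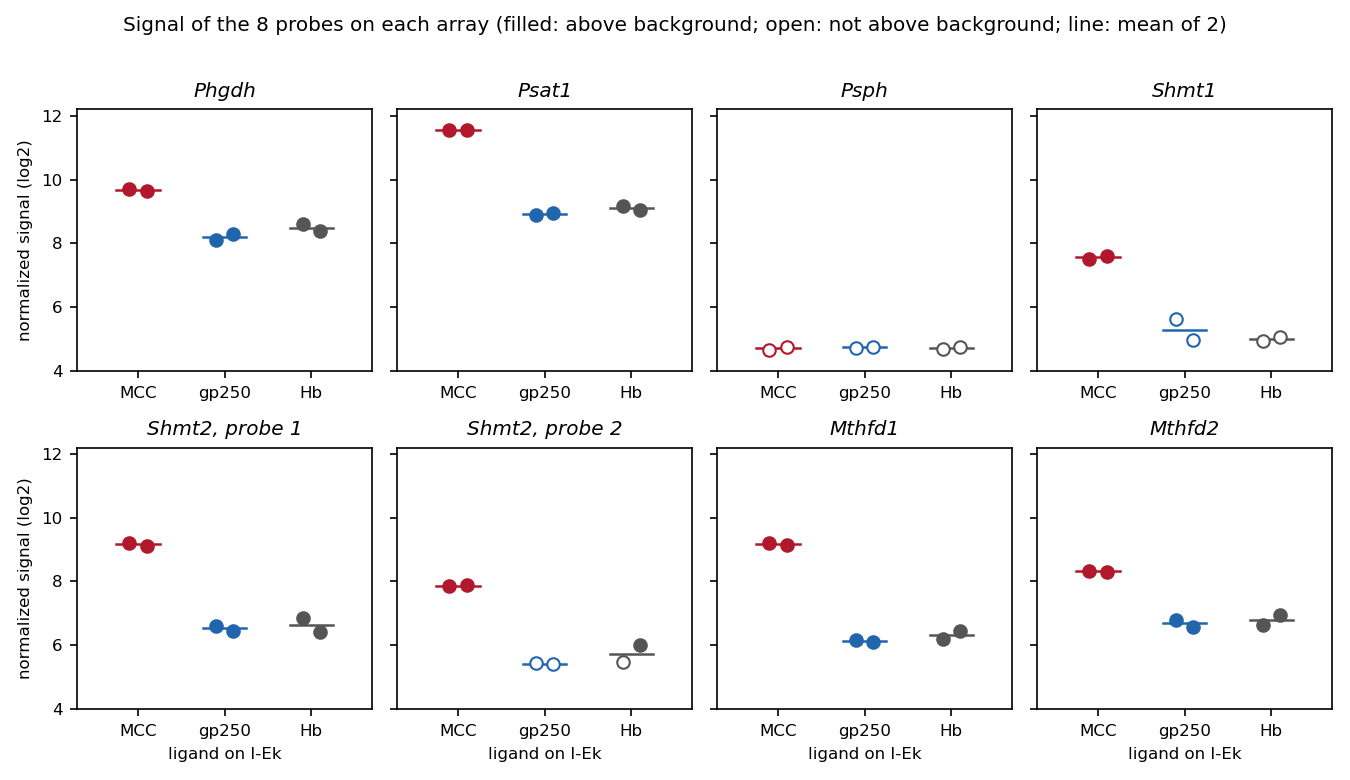
Normalized signal (log2) of the 8 probes on each array, by ligand; filled points were above background, open points were not, and the line is the mean of 2 arrays. In 7 probes both MCC arrays lie above the 4 others, and the Psph probe is open on all 6.

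Levels of different genes cannot be set against each other, since each probe has its own brightness, but the change of a difference between 2 probes can be followed. The log2 difference Mthfd2 minus Mthfd1 was -0.90 and -0.83 on the MCC arrays, 0.65 and 0.46 with gp250, and 0.44 and 0.50 with Hb. The signal of the probe for mitochondrial Mthfd2 rose less with MCC than that for cytosolic Mthfd1, a change of -1.34 on the log2 scale relative to Hb. The exact two-sided permutation test gave p = 0.333, the smallest that 2 against 2 arrays allow, so it cannot decide on this change. The same difference for Shmt2 minus Shmt1 was 1.69 and 1.51 with MCC, 1.00 and 1.49 with gp250, and 1.90 and 1.35 with Hb, a change of -0.03 from Hb to MCC (exact permutation p = 1). Because Shmt1 was below background with Hb, this second change depends on how dim signals are treated: it was -0.78 without background correction and 0.43 with a larger offset. Mthfd1l, the other mitochondrial partner of Mthfd1, could not be compared.

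Promoters of the enzymes are given because 6 of the genes rose together with MCC. The sequences are those of RefSeq on GRCm38.p6, from 250 bases before to 50 bases after the annotated start, written 5′ to 3′ on the gene's strand. All 8 genes matched the table, with 9 promoters, since Psat1 has 2 starts. Shown are 4 of them, those of Mthfd1 (chr12:76254982-76255281, plus strand), Psat1 at its first start (chr19:15925010-15925309, minus strand) and Mthfd2 (chr6:83317555-83317854, minus strand), which hold the pentamer CCAAT on either strand, and that of Shmt2 (chr10:127522395-127522694, minus strand), which holds none. Capitals mark CCAAT or its reverse complement ATTGG.
Mthfd1: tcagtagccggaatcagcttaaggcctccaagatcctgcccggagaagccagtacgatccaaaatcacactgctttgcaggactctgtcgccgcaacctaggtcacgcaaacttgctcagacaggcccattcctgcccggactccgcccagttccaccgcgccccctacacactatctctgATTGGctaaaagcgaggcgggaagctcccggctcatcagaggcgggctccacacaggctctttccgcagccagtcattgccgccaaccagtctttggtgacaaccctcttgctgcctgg
Psat1: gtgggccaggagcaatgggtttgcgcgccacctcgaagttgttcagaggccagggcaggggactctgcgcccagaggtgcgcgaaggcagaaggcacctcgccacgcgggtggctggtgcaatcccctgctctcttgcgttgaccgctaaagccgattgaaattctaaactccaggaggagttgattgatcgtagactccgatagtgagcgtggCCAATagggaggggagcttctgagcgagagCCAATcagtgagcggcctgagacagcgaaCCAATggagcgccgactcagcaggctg
Mthfd2: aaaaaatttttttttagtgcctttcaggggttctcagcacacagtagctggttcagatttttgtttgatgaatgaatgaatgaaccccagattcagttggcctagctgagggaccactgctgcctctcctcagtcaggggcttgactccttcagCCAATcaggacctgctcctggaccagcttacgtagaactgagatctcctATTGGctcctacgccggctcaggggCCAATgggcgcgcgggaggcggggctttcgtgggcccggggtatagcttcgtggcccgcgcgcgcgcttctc
Shmt2: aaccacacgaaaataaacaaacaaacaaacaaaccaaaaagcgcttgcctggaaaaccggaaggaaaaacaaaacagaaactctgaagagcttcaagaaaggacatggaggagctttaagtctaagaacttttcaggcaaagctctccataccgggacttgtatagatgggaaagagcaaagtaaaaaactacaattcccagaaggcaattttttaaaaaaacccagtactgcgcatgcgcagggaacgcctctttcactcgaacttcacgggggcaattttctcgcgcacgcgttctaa

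Both strands of all 9 promoters were searched for CACGTG, the E-box that MYC binds, and for TGATGNAA, the core of the element that ATF4 binds with C/EBP proteins. Neither motif was found in any of the 9, while 7.15% and 3.97% of the 32817 promoters of the table hold them. No match says only that these letters are not in this window. CCAAT, the box bound by NF-Y, was added after the sequences had been read, and 6 of the 9 promoters hold it, against 37.4% of all promoters. None of the 3 motifs contains another. The matches lie in Phgdh, Psat1 at the first start, Psph, Shmt1, Mthfd1 and Mthfd2. Of these genes, Psph was above background on no array. Positions are counted with the start site as 1 and without a position 0. The match in Mthfd1 begins at -69, those in Mthfd2 at -96, -47 and -22, and those in Psat1 at -36, -6 and 24. The promoter of Shmt2, which rose, holds none.

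Next, gp250, the source of positive selection signals, was set against Hb. None of the 6 enzymes passed the test, nor did any of the 8253 genes by their brightest probe (0% called), nor any of the 11942 probes in limma, where the smallest adjusted p was 0.716 and 782 probes had an unadjusted p under 0.05. The differences of the 5 enzymes above background ran from -0.29 to -0.09 on the log2 scale, with a median of -0.19, and the median over all tested genes was 0.01. Their adjusted p-values ran from 0.754 to 0.963. Phgdh differed most, by -0.29 ± 0.11 (95% interval -0.57 to -0.02, unadjusted p = 0.0411, limma adjusted p = 0.754). Psat1 differed by -0.20 (interval -0.42 to 0.02), Shmt2 by -0.09 (-0.47 to 0.29), Mthfd1 by -0.19 (-0.46 to 0.09) and Mthfd2 by -0.10 (-0.43 to 0.23). All 5 estimates lay below 0, but they come from the same arrays and are not independent of each other. None of the 5 intervals reaches a 2-fold change in either direction. Shmt1 was below background with both ligands and has no measured difference. The signs of Shmt2 and Mthfd2 turned when 1 array was left out: Shmt2 was 0.12 without Hb replicate 1, and Mthfd2 was 0.01 without gp250 replicate 2 and 0.06 without Hb replicate 2.

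Set directly against gp250, the same 5 enzymes and Shmt1 were higher with MCC, where 26.3% of all tested genes passed as higher. This comparison shares its MCC arrays with that against Hb, so its values are given beside those and are not independent of them. The rises over gp250 were 2.78-fold for Phgdh, 6.24-fold for Psat1, 6.22-fold for Shmt2, 8.26-fold for Mthfd1 and 3.08-fold for Mthfd2, with limma adjusted p-values from 5.07e-06 to 0.000147. The order of the 5 measured genes by fold change was Mthfd1, Psat1, Shmt2, Mthfd2 and Phgdh over gp250 and Mthfd1, Shmt2, Psat1, Mthfd2 and Phgdh over Hb. Only the places of Psat1 and Shmt2 changed, and their intervals overlap in both comparisons.

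**Figure D2:**
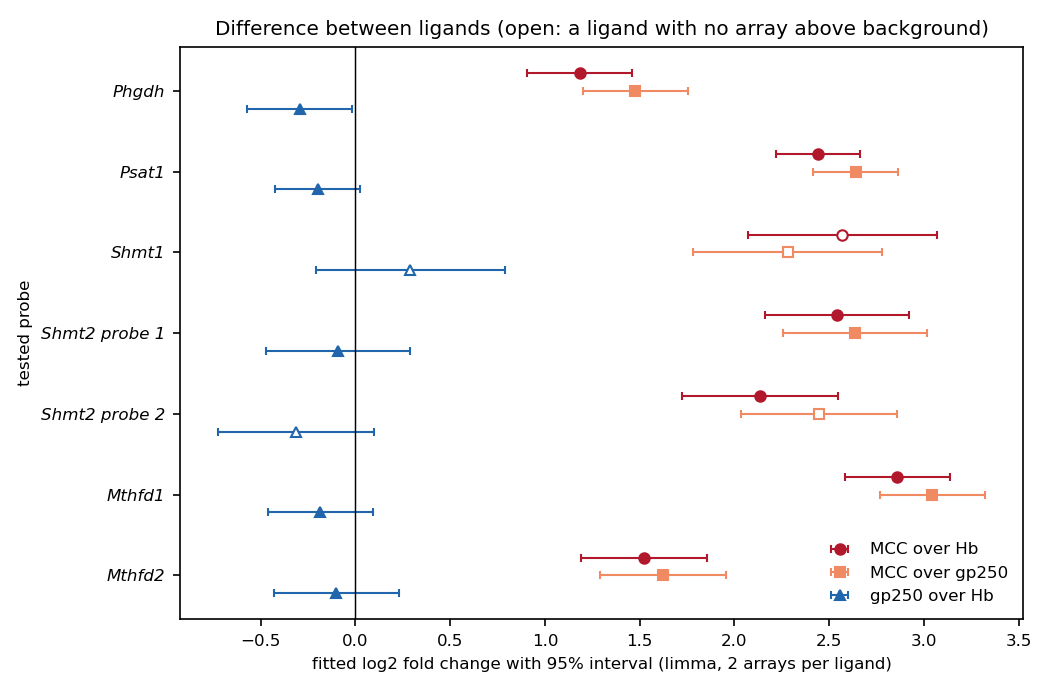
Fitted log2 fold change with its 95% interval for the 7 tested probes in the 3 comparisons of ligands, from limma with 2 arrays per ligand; open symbols have a ligand with no array above background. Both comparisons with MCC lie above 1 for every probe, except that the lower bound of Phgdh over Hb is 0.91, and the intervals of gp250 over Hb reach neither 1 nor -1.

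Within the response to MCC over Hb, Mthfd1 had the 83rd largest fitted rise of the 8253 tested genes, Shmt1 the 110th, Shmt2 the 113th and Psat1 the 126th. Mthfd2 was at place 363 and Phgdh at place 560. In other words 0.994% of the genes rose more than Mthfd1, 1.51% more than Psat1, and 6.77% more than Phgdh. The place of Shmt1 follows from its fitted value and not from a measured fold. All changes are measured relative to the array as a whole. Of the 6545 probes called, 3176 were higher and 3369 lower with MCC, and without scaling between arrays 4674 were higher and 2017 lower, with the median of all genes at 0.21. The 6 enzymes were called higher under that setting too.

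**Figure D3:**
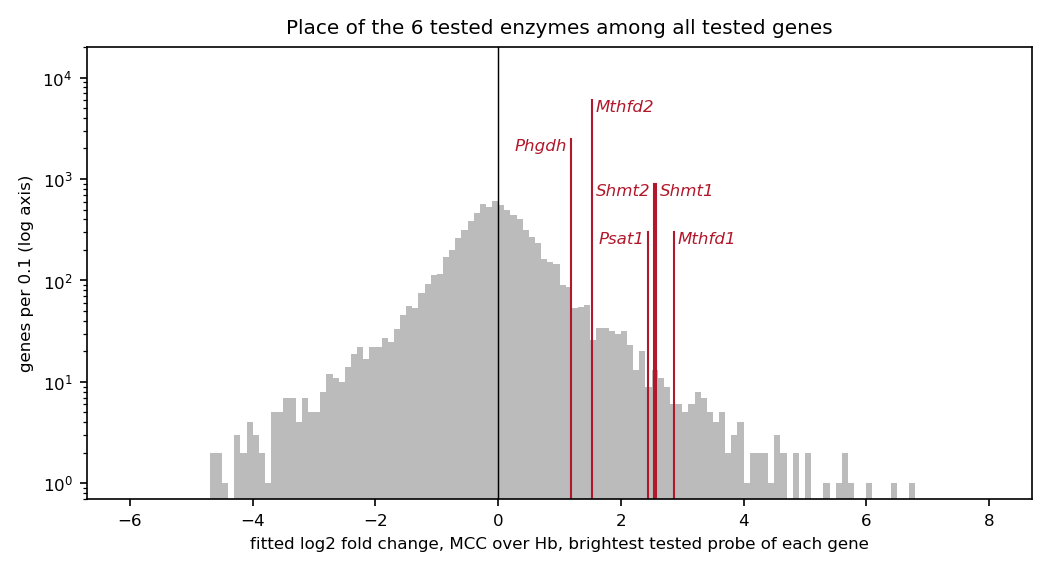
Number of genes (log axis) in steps of 0.1 of the fitted log2 fold change of MCC over Hb, each gene by its brightest tested probe, with the 6 tested enzymes marked in red. The enzymes lie between 1.18 and 2.86, to the right of the bulk of the 8253 genes, whose median is -0.04.

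Genes with a similar profile were sought for Mthfd1, Shmt1 and Shmt2, the 3 enzymes with the largest fitted log2 change. Shmt1 is among them by its fitted value only, since it has a bound and no measured fold. Its signal on the gp250 and Hb arrays was not above background. For each enzyme, the 5 genes with the smallest Euclidean distance were taken as most similar. The distance was between log2 profiles over the 6 arrays, each centred on its mean. Nearest to Mthfd1 was Dusp4, a phosphatase of MAP kinases, at a distance of 0.16, followed by Slc45a3, Eno3, Fam167a and Klhdc2 at up to 0.29. Nearest to Shmt2 was Insl6 at 0.22, followed by Ndufaf4, an assembly factor of mitochondrial complex I, Cobll1, Tmem97 and Ppa1, a pyrophosphatase, at up to 0.33. Nearest to Shmt1 was St3gal2, a sialyltransferase, at 0.27, followed by Hic1, Pacsin1, Odc1, the first enzyme of polyamine synthesis, and Rsad1 at up to 0.45. For these 15 genes the log2 fold change was 2.35 to 2.97 with MCC over Hb and 2.20 to 3.16 with MCC over gp250. These sizes follow from the choice by distance, which takes genes whose changes are close to those of the enzyme.

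Lists of genes around this route are given with the number called in MCC over Hb, to be read against the 26.2% of all tested genes called higher and the 28.8% called lower. No difference between lists was tested. Among 14 other folate cycle enzymes, 6 were tested, 1 was higher and 1 lower with MCC than with Hb. Fpgs, which adds the glutamate tail that keeps folate in the cell, rose 1.76-fold (log2 0.82 ± 0.10). Tyms, the thymidylate synthase, fell by 0.70 ± 0.11, although 3 other Tyms probes differed by -0.45 to -0.04. The median of the 6 was -0.15. Of the 4 genes of the glycine cleavage system, 2 were tested, 0 were higher and 1, the glycine decarboxylase Gldc, was lower by 0.66 in the fit and not above background with MCC. Of the 4 genes of glutathione synthesis, which uses glycine, 3 were tested and none was called by its brightest probe. For Gss that probe differed by 0.14, and 2 other probes by -0.04 and 0.97.

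Of 13 carriers of serine, glycine and folate, 10 were tested, 6 were higher and 1 lower, and with detection required on all 6 arrays 3 were higher. Slc1a4 and Slc6a9, among the 6, were tested only because they were above background on both MCC arrays, and they enter the median. Slc19a1, the reduced folate carrier, rose 3.97-fold. Slc1a4, a carrier of serine and other neutral amino acids, was below background with Hb and at least 2.39-fold higher, and Slc1a5, a glutamine carrier, rose 2.02-fold. Slc38a2, another neutral amino acid carrier, fell by 1.08 on the log2 scale. The median of the 10 was 0.74. Of 13 purine synthesis genes, which use the formyl groups that Mthfd1 makes, 10 were tested, 6 were higher and 2 lower, with a median of 0.61. Gart rose 3.24-fold, Ppat, the first committed step, 2.74-fold, and Atic 2.60-fold. Gart and Atic carry the formyl transfer steps. Impdh1, of the guanine branch, fell by 1.78, and Prps2, which makes the sugar donor, fell by 1.24.

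On the supply side, 4 of 8 glycolytic genes around 3-phosphoglycerate were tested and 3 were higher, with a median of 1.13. Eno2 rose 6.61-fold, Pgam1 2.22-fold and Gapdh 2.17-fold. Of 8 genes that supply glutamate for transamination, 5 were tested, and Got2 was higher at 0.33 and Gpt lower at -0.95 on the log2 scale, with a median of 0.17. Of 12 genes of the methionine cycle and transsulfuration, 6 were tested, 2 were higher and 1 lower, with a median of 0.24. Mtap, which salvages methionine, rose 3.59-fold, Ahcyl1 was higher at 0.43 and Mat2b lower at -0.46. Of 10 other genes that use or handle serine, 6 were tested, with a median of -0.34. Sptlc1, of the enzyme that joins serine to a fatty acid, rose 1.87-fold, while Serinc3 and Serinc1, serine incorporators, fell by 0.99 and 0.65.

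Of 13 known regulators of the route, 8 were tested, 3 were higher and 2 lower, with a median of 0.14, where 26.2% of all tested genes were higher and 28.8% lower. Without scaling between arrays 5 were higher and 1 lower. Myc was below background with Hb and at least 1.79-fold higher, Atf4, the transcription factor of the amino acid response, rose 1.93-fold, and Ddit3, a partner of Atf4, rose 1.83-fold. Myc would not have been tested without the MCC arrays, and with detection required on all 6 arrays 2 regulators were higher. Mdm2 fell by 0.66, although other Mdm2 probes differed by -0.54 to 0.19, and Eif2ak3, an upstream kinase of the Atf4 pathway, fell by 0.61. Of 16 targets of Atf4 outside the route, 12 were tested, 6 were higher and 2 lower, with a median of 0.58, where 26.2% and 28.8% of all tested genes were higher and lower. Chac1, among the 6, was tested only because it was above background on both MCC arrays, and it enters the median. With detection required on all 6 arrays, 5 targets were higher and 1 lower. Asns, the asparagine synthetase, rose 10.8-fold, Slc7a5, a carrier of large neutral amino acids, 9.52-fold, and Aars, an alanyl-tRNA synthetase, 3.29-fold. Slc7a11, the cystine carrier, was below background with MCC and at least 9.62-fold lower, and Ddit4 fell by 0.66. Trib3 and Stc2, also targets of Atf4, did not pass the test, at 0.08 and -0.04. Between gp250 and Hb no gene of any of these 11 lists was called.

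Several of these neighbouring calls were lost under an alternative. Gldc lost its call without MCC replicate 1 (-0.62) and without MCC replicate 2 (-0.69), and it was not tested without gp250 replicate 2, without Hb replicate 1 or with detection required on all 6 arrays. With no filter on dim probes it was not called either (limma adjusted p = 0.0575). Mat2b lost it without either MCC array (-0.42 without replicate 1 and -0.50 without replicate 2) and without Hb replicate 1 (-0.36). Got2 lost it without either MCC array (0.29 and 0.35) and without Hb replicate 2 (0.29), and Ahcyl1 without MCC replicate 2 (0.33) and Hb replicate 2 (0.37). Without scaling between arrays, Gldc (-0.51), Mat2b (-0.13), Serinc1 (-0.32) and Eif2ak3 (-0.33) were not called.

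**Figure D4:**
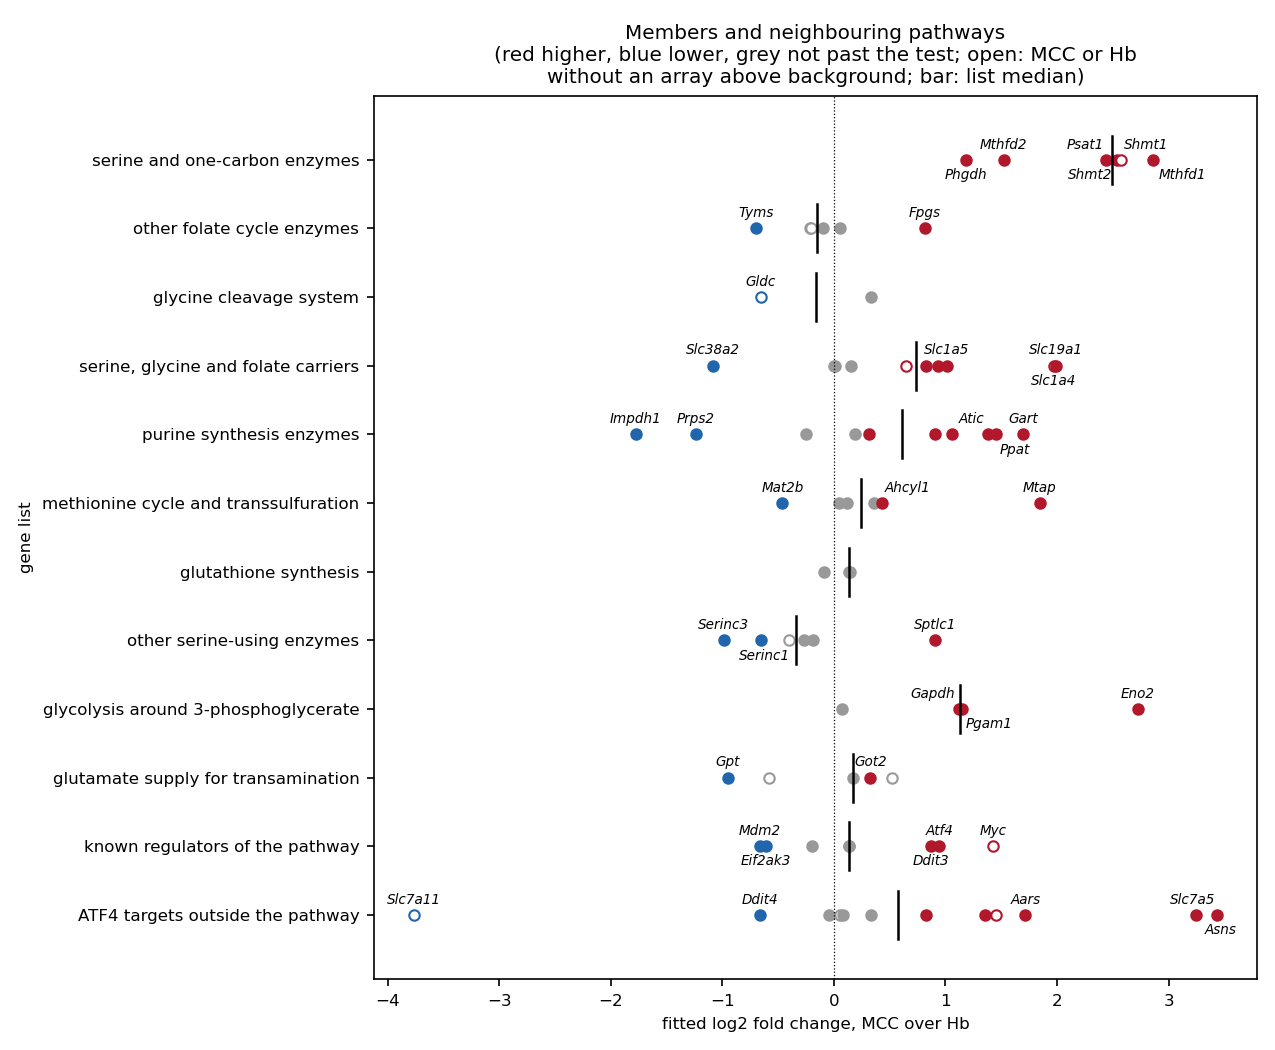
Fitted log2 fold change of MCC over Hb for the tested genes of the serine and one-carbon enzymes and of 11 neighbouring lists, each point a gene by its brightest probe; red was called higher, blue lower, grey neither, open points lack an array above background with MCC or Hb, and the bar is the list's median. All 6 enzymes of the top row are red with a median of 2.49, and the list medians below run from -0.34 to 1.13. Shmt1 was tested only because it was above background on the MCC arrays, and the median of the other 5 enzymes is 2.44.

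Marker lists of the thymocytes and of other cells had the following values, where summed signals are deposited intensities, not scaled between arrays, and the MCC arrays had the higher mean. The summed signal of the DP thymocyte markers was 86104 to 89097 on the MCC arrays and 109953 to 116498 on the others, and Dntt and Cd4 were among the 6 markers that fell. The B cell list had 5 named genes of 6, of which 2 were tested, and its summed signal was 282 to 295 with MCC and 1039 to 1180 on the other arrays. Most of that signal came from Cd79b, which fell by 2.40 on the log2 scale. Cd79a was also called lower (-0.45), but not without MCC replicate 1 (-0.39), MCC replicate 2 (-0.50) or Hb replicate 2 (-0.29), without scaling between arrays (-0.28), with no filter on dim probes or with a variance trend. Ms4a1 and Pax5 were not tested. The myeloid and dendritic list had 7 named genes of 8, of which 5 were above background on no array, and its only tested gene, Cst3, differed by 0.15 (limma adjusted p = 0.223). Its summed signal was 3827 to 3937 with MCC and 2817 to 2870 on the others.

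Of the erythroid list 2 genes were tested and 1, Hba-a1, was lower (-0.53), a call lost without MCC replicate 1 (-0.50), MCC replicate 2 (-0.55) or Hb replicate 2 (-0.39), without scaling between arrays (-0.22) and with no filter on dim probes. Of the stromal and endothelial list 2 were tested. Pecam1 fell by 1.67, and Krt8 was higher (0.41), a call lost without MCC replicate 1 (0.27), Hb replicate 1 (0.41) or Hb replicate 2 (0.42) and under 5 other alternatives. Of the natural killer and innate lymphoid list 2 were tested, of which Nkg7 rose 2.27-fold and Il18r1, below background with MCC, was at least 3.08-fold lower. The part of these differences in the rise of the enzymes was not tested.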

How the data were processed

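Per the labels' protocols, total RNA was isolated from thymocytes after 7 h on ligand and biotinylated for Illumina arrays of 1 colour. The deposited table holds, per the file headers, the intensity of each probe on 6 arrays without normalization, and beside it a detection p-value. Intensities go below 0, so a background had been subtracted before deposit. Scanner software, chip and scan position are not given in the sources, so no batch was set.

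In R 4.3.3 with limma 3.58.1, neqc corrected the background by normexp, using the detection p-values, with an offset of 16, followed by quantile normalization and log2 values. The offset pulls fold changes of dim probes towards 0. Probes with a detection p under 0.05, here called above background, on at least 2 arrays were tested. The linear model took 1 mean for each ligand over the 6 arrays, leaving 3 residual degrees of freedom, and tests were moderated (eBayes). p-values were adjusted by Benjamini-Hochberg over all 11942 probes within each comparison, and an adjusted p under 0.05 was called. Genes are represented by their brightest tested probe. A gene below background on all arrays of a ligand has a bound, written "at least". Only the linear model and its adjusted p-values were tested on simulated data, where a far smaller share of probes changed than here. Background correction, scaling, the filter on dim probes, the bounds and the permutation test were not simulated. Differences between 2 probes were tested by exact permutation over arrays.

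The platform annotation named the probes, and 23962 of them matched RefSeq genes of GRCm38.p6 by Entrez number. That table and the promoter table of the same assembly gave names and sequences only. No protein sequence was used here. The authors' processed table, the deposited intensity times 1 factor per array, served as an alternative. No other sample columns were present (0).

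The enzymes and all gene lists were chosen with earlier results of these data known. Every enzyme and probe is reported. Of each list, up to 3 called genes with the largest rise and 3 with the largest fall were named, plus 5 like genes for each of 3 enzymes. Trib3, Stc2, Chac1, Slc6a9, Cst3, Ms4a1, Pax5 and the other marker genes of cell types were named after their values were seen. The alternatives were other background, offset, scaling, filter, variance, probe and block choices, and leaving out each array. A filter on detection without the MCC arrays was added after the values were seen.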

Additional observations from a re-analysis of the deposited data

How the results depend on the processing

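The rise of the 6 enzymes with MCC over Hb kept its direction and its call in all 93 values computed under 17 alternatives, 1 of them added after the values were seen, with adjusted p-values up to 0.00364. The lowest and highest log2 changes were 1.08 and 1.46 for Phgdh, 2.37 and 2.74 for Psat1, 1.76 and 3.31 for Shmt1, 2.19 and 2.80 for Shmt2, 2.43 and 3.11 for Mthfd1, and 1.28 and 1.75 for Mthfd2, and most of the lowest came with an offset of 50. Shmt1 had no value with detection required on all 6 arrays, with detection required on 2 of the 4 gp250 and Hb arrays (the added alternative) or without either MCC array, which leaves 5 tested enzymes, all called; leaving out 1 array gave 5 to 6 enzymes and 5029 to 6481 probes called between MCC and Hb. The change of Shmt2 minus Shmt1 was -0.03 as reported, -0.78 without background correction, 0.43 with an offset of 50 and -0.76 in the authors' processed table, and the dim Shmt1 signal limits it. The change of Mthfd2 minus Mthfd1 was -1.34, and -1.15 with an offset of 50. Between gp250 and Hb, 0 probes were called under every alternative, and Shmt1, below background with both ligands, turned to -0.04 without gp250 replicate 1. Tested without a filter, Psph differed by -0.01 between MCC and Hb (limma adjusted p = 0.957). With the replicate number as a block, 6331 probes and 6 enzymes were called between MCC and Hb. Deviations of same-numbered arrays correlated at 0.02, -0.00 and -0.02. Whether same-numbered arrays share a mouse or culture is not stated in the labels, and these values cannot decide it.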
